A study of Mus musculus with 6 samples.

Results

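Genes of T cells and natural killer (NK) cells were examined in RNA from cells sorted as muscle satellite cells. The 10 members were Cd3e, Cd3d, Cd3g, Cd2, Lck, Il7r, Nkg7, Gzma, Gzmb and Klrb1c, chosen by symbol as the rows of the authors' deposited table that carry these names, of 23361 genes in that table. All 10 had a row, and 9 were tested by the authors. The study compared 3 wild-type with 3 AUF1-null samples from mice aged 4 months, whose labels describe breeding that involved C57BL/6 and 129 strains. AUF1, encoded by Hnrnpd, is an RNA-binding protein that acts on AU-rich mRNAs. Hindlimb muscle was digested with collagenase and cells were sorted by flow cytometry on Sdc4, a surface proteoglycan of satellite cells; no step that removes blood cells is named in the labels. The labels do not say in which cells the gene was disrupted, nor whether each sample was 1 animal.

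T cells recognise antigen through the T cell receptor, which signals through the CD3 chains and the kinase Lck. NK cells carry no such receptor and are steered by activating and inhibitory lectin-like receptors, and both NK cells and killer T cells store granzymes in cytotoxic granules. In skeletal muscle, lymphocytes are sparse at rest and enter after injury, when regulatory T cells in particular act on satellite cells.

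The table gives 1 value per gene for each of its conditions, named q1 and q2, as fragments scaled by transcript length and library size (FPKM), after the authors pooled the replicates; the headings name no unit, and the scale is taken from the table's layout. No label says which condition is AUF1-null, and all directions are those of q2 against q1. No value has a replicate spread beside it, the read depth is unknown, and every p and q is the one Cuffdiff wrote into the authors' deposited table. A gene was called when its q, the p adjusted over all tested genes, lay below 0.05. Per the authors' deposited table, Hnrnpd itself stood at 7.5 and 5.59, with a Cuffdiff q of 0.999. The sorting marker Sdc4 was at 173 and 270 and the satellite cell gene Myf5 at 16.7 and 17.8 there. The defining factor Pax7 was low in both conditions, at 1.16 and 0.854. In q2 Pax7 lay below every tested member, but in q1 it lay above Cd3e, Cd3d, Cd3g, Il7r and Gzmb. Other satellite cell genes ranged from Vcam1, at 90.8 and 65.1, to Myod1, at 0.627 and 0.88.

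The sequences upstream of the annotated starts are shown for Nkg7, the single member that was called, and for the 3 CD3 genes, which lie side by side and were all listed higher in q2. Gzmb is shown beside them as a granule gene that was not called. Each line gives 250 bases before an annotated RefSeq transcript start (GRCm38.p6), on the gene's own strand. The RefSeq genes Cd3e and Cd3d begin further upstream, at chr9:45009663 and chr9:44981769, so their windows reach into the gene. Capitals mark the letters of 4 short motifs on either strand: TGTGGT, bound by RUNX factors, GGAAGT, bound by ETS factors, GGTGTGA, bound by T-box factors, and TCAAAG, bound by TCF and LEF factors. The windows are chr7:43436888-43437137 (plus strand), chr9:44980432-44980681 (minus strand), chr9:44981536-44981785 (plus strand), chr9:45009612-45009861 (minus strand) and chr14:56262335-56262584 (minus strand).
Nkg7: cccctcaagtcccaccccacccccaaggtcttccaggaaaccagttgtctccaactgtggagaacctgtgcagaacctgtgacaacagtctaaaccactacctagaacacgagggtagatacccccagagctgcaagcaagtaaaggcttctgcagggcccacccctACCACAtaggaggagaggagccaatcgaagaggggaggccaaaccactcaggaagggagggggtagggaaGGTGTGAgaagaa
Cd3g: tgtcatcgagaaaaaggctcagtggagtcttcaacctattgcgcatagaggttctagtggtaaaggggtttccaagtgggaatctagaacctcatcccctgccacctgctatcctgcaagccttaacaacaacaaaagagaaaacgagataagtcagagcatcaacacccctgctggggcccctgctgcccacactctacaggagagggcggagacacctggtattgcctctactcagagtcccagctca
Cd3d: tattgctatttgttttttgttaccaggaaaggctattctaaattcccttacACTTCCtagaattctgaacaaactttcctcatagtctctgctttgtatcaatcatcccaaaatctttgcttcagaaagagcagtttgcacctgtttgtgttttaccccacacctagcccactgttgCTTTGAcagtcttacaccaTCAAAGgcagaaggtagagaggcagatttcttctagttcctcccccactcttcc
Cd3e: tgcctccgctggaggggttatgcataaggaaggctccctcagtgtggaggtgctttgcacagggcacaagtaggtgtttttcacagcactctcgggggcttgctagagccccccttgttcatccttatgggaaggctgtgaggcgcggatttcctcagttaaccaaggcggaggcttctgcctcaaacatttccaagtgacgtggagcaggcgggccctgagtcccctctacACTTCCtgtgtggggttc
Gzmb: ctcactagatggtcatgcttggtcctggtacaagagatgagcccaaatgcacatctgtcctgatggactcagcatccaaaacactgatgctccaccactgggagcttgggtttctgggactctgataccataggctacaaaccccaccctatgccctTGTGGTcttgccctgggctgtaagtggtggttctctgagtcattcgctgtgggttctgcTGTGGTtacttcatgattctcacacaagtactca

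Of the 9 members with a sequence in the RefSeq table, all but Cd2, Lck has 2 annotated starts and the others 1. Among these 9, 5 held TGTGGT at 1 or more starts, namely Nkg7, Gzma, Gzmb, Klrb1c and Lck. Of all 32851 promoters of that length, 14% held it. That share counts promoters and not genes, and Lck held the motif at only 1 of its 2 starts. All 4 members with granule or NK roles held TGTGGT, and none of the CD3 genes did. GGAAGT was found in 5 members, Cd3d, Cd3e, Il7r, Klrb1c and Lck, against 19.7% of promoters. The matches of Cd3e and Il7r lie within the span of their RefSeq genes. GGTGTGA stood only in Nkg7 among the members, 13 bases before the start, against 3.33% of promoters. TCAAAG stood only in Cd3d, at 2 places, against 13.8% of promoters. None of the 4 motifs was in the Cd3g window. The motifs were picked with the sequences in view and do not overlap one another in these windows; a match describes letters and not a bound site.

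Nkg7 was the 1 member that was called. It lies at chr7:43437138-43438246 (GRCm38), a protein-coding gene of 1109 bases on the plus strand, and codes for a membrane protein of cytotoxic granules in NK cells and killer T cells. Its level was 3.37 in q1 and 27.6 in q2 per the authors' deposited table. This is 8.2-fold higher in q2, a log2 fold change of 3.04 (Cuffdiff p = 0.00015, q = 0.0275 per the authors' deposited table). Over all 14858 tested genes, 0.498% were called higher in q2 and 0.612% in either direction, and 0.282% were called higher among the 7788 tested genes in the members' range of mean levels; 1 of 9 tested members was. With a pseudocount of 1 added to both values the rise was 6.55-fold. In bulk RNA such as this, more cells of a type and more RNA per cell cannot be told apart. Nkg7 alone made up 21.9% of the summed level of the 10 members in q1 and 46.2% in q2.

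**Figure D1:**
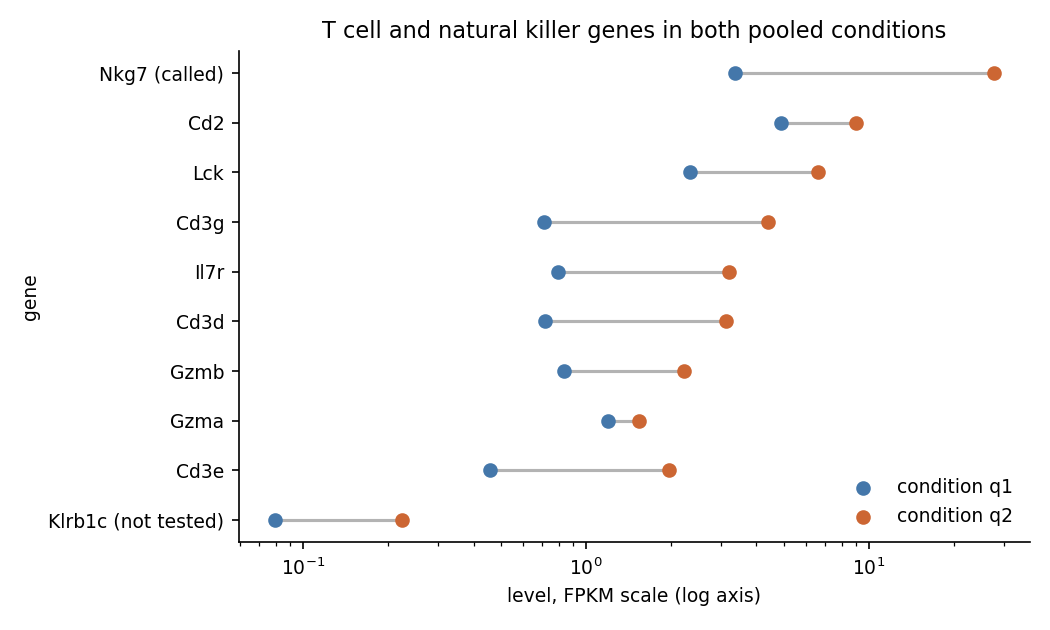
Level of each member in both pooled conditions on the FPKM scale (log axis), with 1 point per condition and no error bar because the table holds 1 value each; genes are ordered by mean. All 10 points of q2 lie to the right of q1, the gap being widest for Nkg7 (3.37 and 27.6) and narrow for Gzma (1.19 and 1.54).

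The 3 CD3 chain genes were low in both conditions, were listed higher in q2, and did not pass the test. CD3 epsilon pairs with CD3 delta or CD3 gamma, and these chains carry part of the signalling motifs of the T cell receptor. Cd3e, at chr9:44998743-45009590, was listed at 0.458 and 1.96 per the authors' deposited table, a log2 fold change of 2.09 (Cuffdiff p = 0.0336, q = 0.735). Cd3d, at chr9:44981786-44987052, was listed at 0.717 and 3.11 per the authors' deposited table, a log2 fold change of 2.12 (Cuffdiff p = 0.04, q = 0.776). Cd3g, at chr9:44969572-44980431, was listed at 0.712 and 4.39 there, a log2 fold change of 2.62 (Cuffdiff p = 0.0113, q = 0.485 per the authors' deposited table). All CD3 genes were thus below 1 FPKM in q1 and between 1.96 and 4.39 in q2. The genes span 40019 bases in all; Cd3g and Cd3d point away from each other with 1354 bases between them, and Cd3e lies 11690 bases beyond Cd3d. GENCODE places the antisense gene Gm48719 within the span of Cd3e, and since the strand setting is not given, reads of both cannot be told apart.

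Lck and Cd2 had the highest levels among the T cell members. Lck, the kinase that phosphorylates the CD3 chains, lies at chr4:129548344-129573641 and was listed at 2.33 and 6.58 per the authors' deposited table. The log2 fold change of 1.50 did not pass (Cuffdiff p = 0.0203, q = 0.598 per the authors' deposited table). Cd2, an adhesion receptor of T and NK cells that mouse B cells also carry, lies at chr3:101275908-101287939 and was listed at 4.88 and 9.01 per the authors' deposited table. The difference was 0.88 on the log2 scale, below 2-fold (Cuffdiff p = 0.157, q = 0.999 per the authors' deposited table). Cd2 was therefore the most abundant member in q1 but had the second smallest fold among those tested.

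Il7r codes for the interleukin-7 receptor chain that resting T cells and innate lymphoid cells need to survive. It lies at chr15:9506159-9529876 and was listed at 0.796 and 3.2 per the authors' deposited table, with a log2 fold change of 2.01 (Cuffdiff p = 0.0076, q = 0.384). After Nkg7 this was the lowest p of the members, and it still missed the threshold.

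The granzymes, serine proteases that killer cells release into their targets, were near 1 FPKM and not called. Gzmb, at chr14:56258858-56262260, was listed at 0.838 and 2.22 per the authors' deposited table, a log2 fold change of 1.41 (Cuffdiff p = 0.154, q = 0.999). Gzma, at chr13:113093827-113100981, was listed at 1.19 and 1.54 there, a log2 fold change of 0.37 (Cuffdiff p = 0.735, q = 0.999 per the authors' deposited table). Gzma thus had the smallest difference of the tested members, and the difference between Nkg7 and either granzyme was not tested. Gzmb lies in a cluster of related granzyme genes, and whether reads are shared among them was not tested.

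Klrb1c, which codes for the NK1.1 receptor that marks NK cells in C57BL/6 mice, was too low to be tested. It lies at chr6:128778485-128788641 and stood at 0.0794 in q1 and 0.224 in q2 per the authors' deposited table, with status NOTEST. None of the 7388 genes with a mean at or below that of Klrb1c was tested by the authors. Whether reads are shared with related lectin receptor genes nearby was not tested, and GENCODE places Gm44511 on the same strand within its span.

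The order of the members by level differed between the conditions. In q1 the order of levels ran Cd2, Nkg7, Lck, Gzma, Gzmb, Il7r, Cd3d, Cd3g, Cd3e and Klrb1c. In q2 it ran Nkg7, Cd2, Lck, Cd3g, Il7r, Cd3d, Gzmb, Cd3e, Gzma and Klrb1c. Gzma moved from the fourth place to the ninth and Cd3g from the eighth to the fourth. Without a spread over samples, whether neighbours in these orders differ cannot be judged. In q2, 9 of the 10 members stayed below 10 FPKM, and the summed level of all 10 was 15.4 in q1 and 59.9 in q2, or 12 and 32.2 without Nkg7, by the authors' deposited table.

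All 9 tested members lay above 0, where 48.7% of all tested genes did, and their median log2 fold change was 2.01 against -0.01 for all tested genes. Of the 9, 7 were more than 2-fold higher in q2, against 7.71% of all tested genes, and against 6.6% of the 7788 tested genes whose mean lay in the members' range of 1.21 to 15.5 FPKM. By the unadjusted Cuffdiff p below 0.05, 6 members were higher, namely Nkg7, Cd3e, Cd3d, Cd3g, Il7r and Lck, against 3.72% of all tested genes higher at that p. The members were chosen with earlier results of these data known, so these counts describe them and no test of the list was made. In this range of levels, 156 tested genes were at least 4-fold higher in q2 and 20 of these were called; the smallest called rise there was 3.38-fold. A missing call for a 4-fold difference at these levels therefore does not show that a gene was unchanged.

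**Figure D2:**
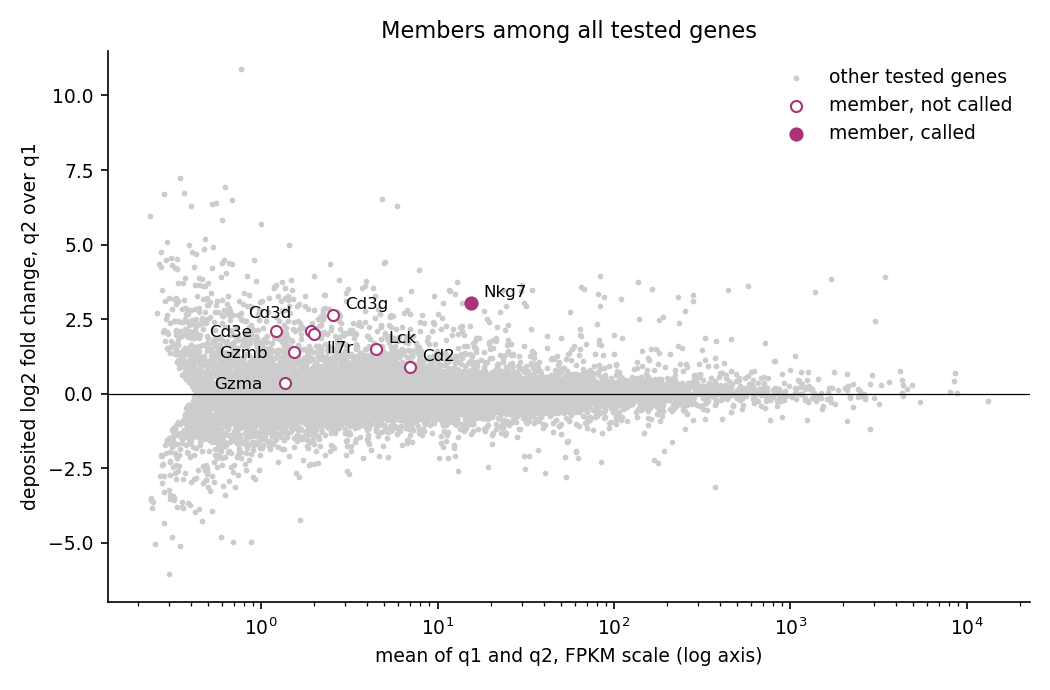
Deposited log2 fold change (q2 over q1) against the mean of both conditions (FPKM scale, log axis) for tested genes above 0 on both sides, 1 grey point per gene, with the 9 tested members labelled. All members lie above 0 at means of 1.21 to 15.5, where the grey points are widely spread, and Nkg7 alone is filled as called.

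Low levels made the folds depend on a pseudocount. With 1 added to both values, Cd3g was 3.15-fold higher in q2 in place of 6.17-fold, Cd3e 2.03-fold in place of 4.27-fold, Cd3d 2.39-fold in place of 4.33-fold and Il7r 2.34-fold in place of 4.02-fold, all from the authors' deposited table. Gzmb went from 2.65-fold to 1.75-fold and so fell below 2-fold, leaving 6 members past it, against 3.32% of all tested genes on that scale. Every tested member reached 1 FPKM on its higher side, and among all tested genes that did, 6.35% were more than 2-fold higher in q2.

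**Figure D3:**
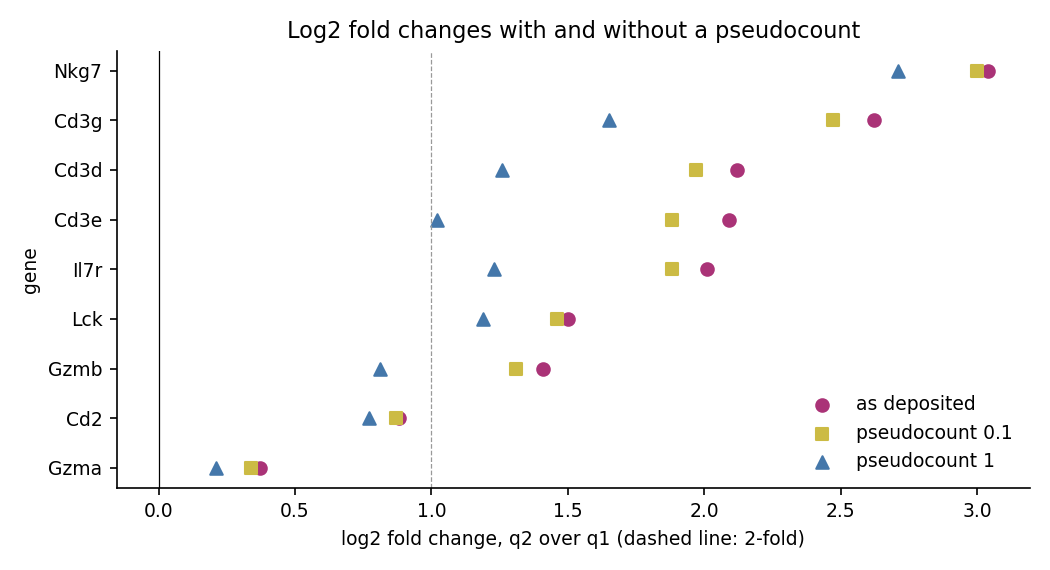
Log2 fold change (q2 over q1) of the 9 tested members as deposited and with 0.1 or 1 FPKM added to both values; the dashed line is 2-fold. Cd3e with a pseudocount of 1 lies at 1.02, and Nkg7 stays the highest at 2.71.

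The wider T cell receptor machinery was described with 26 further genes. Of these, 23 were tested and none was called, where 0.612% of all tested genes were called in either direction. Of the 23, 20 lay above 0, against 48.7% of all tested genes. The median of the 23 was 1.79 on the log2 scale, or 0.69 with a pseudocount of 1. At an unadjusted Cuffdiff p below 0.05, 6 were higher, against 3.72% of all tested genes. Lat, the adaptor that assembles the signalling complex, was listed at 1.26 and 6.1 per the authors' deposited table. The co-receptor genes Cd4, at 0.38 and 1.22, and Cd8a, at 0.147 and 0.841, were lower than the CD3 genes in both conditions there. Cd8b1, the gene of the other CD8 chain, went the other way, at 0.345 and 0.0713, and was not tested by the authors. Thy1 was at 5.2 and 4.89. Icos, a co-stimulatory receptor, was listed at 1.18 and 3.59, and Ctla4, an inhibitory receptor, at 0.726 and 3.03 per the authors' deposited table. Cd247, which codes for the zeta chain of the same receptor, stood apart, at 18.8 and 18.4 per the authors' deposited table, far above its partners and with a log2 fold change of -0.03. Its row is placed at chr1:165788681-166002634, a span that also holds Pou2f1 on the opposite strand. Since the strand setting is not given, reads of both cannot be told apart, and the level of Cd247 is uncertain. Fyn, a kinase that many cell types express, was listed at 17.2 and 16.7 per the authors' deposited table.

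Transcription factors of these lineages did not lie to one side. Of 17 tested, 9 lay above and 8 below 0, with a median of 0.17. None was called, where 0.612% of all tested genes were called in either direction. Tcf7, a factor of T cell identity, was listed at 0.798 and 2.46, and Runx3, a factor of killer cells, at 0.373 and 1.22 per the authors' deposited table. Foxp3, which defines regulatory T cells, was at 0.0684 and 0.443 there. The most abundant were Ets1, at 142 and 77.3, and Id2, at 130 and 147 per the authors' deposited table, both of which other cell types express as well. Tbx21 and Eomes, the T-box factors of NK cells, were at 0.109 and 0.321 and at 0.181 and 0.116 there and were not tested.

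NK receptor genes were mostly at the edge of detection. Of 28 genes, 15 were tested and 13 of these lay above 0, against 48.7% of all tested genes. The median of the 15 was 1.10 on the log2 scale, or 0.39 with a pseudocount of 1. Of the 15, 1 was called, against 0.612% of all tested genes in either direction. Ncr1, which codes for the NKp46 receptor, was listed at 0.315 and 1.42 and Klrk1, which codes for NKG2D, at 0.332 and 0.81 per the authors' deposited table. Other receptors of the list were level or lower in q2, with Klrd1 at 0.733 and 0.734 and Cd226 at 1.98 and 1.35. Hcst, the adaptor of NKG2D, was at 5.26 and 25.3 there, with a Cuffdiff q of 0.766. Tyrobp, an adaptor of both NK and myeloid receptors, was the single called gene, at 115 and 347 with a Cuffdiff q of 0.0201 per the authors' deposited table. Fcgr3, an Fc receptor that NK cells share with myeloid cells, was at 39.7 and 49.5 there. Klra9 was listed at 13 and 12.1 per the authors' deposited table, but its row spans a cluster of near-identical receptor genes and its level is uncertain.

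None of the 14 tested granule and killing genes outside the members was called, where 0.612% of all tested genes were called in either direction. Of the 14, 9 lay above 0, against 48.7% of all tested genes, with a median of 0.43. Prf1, the pore-forming perforin, was listed at 0.0496 and 0.223 per the authors' deposited table and was not tested. Gzmk was at 0.0431 and 0.482 there, also untested, and Gzmm at 3.29 and 4.53. Gzmd, Gzme, Gzmf and Gzmg were listed at 0 in both conditions. Srgn, the granule proteoglycan of most leukocytes, was at 451 and 754, and Lamp1, a lysosomal membrane protein, at 80.4 and 72 per the authors' deposited table.

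The interleukin-7 pathway beyond its receptor chain showed no side. Of 17 tested genes, 10 lay above 0, against 48.7% of all tested genes, and the median was 0.09. None was called, where 0.612% of all tested genes were called in either direction. Il7, the ligand, was listed at 1.18 and 1.46, and Il2rg, the shared gamma chain that pairs with Il7r, at 50 and 77.8 per the authors' deposited table. Il4ra, another receptor chain that pairs with it, was at 65.2 and 69.3 there. Il2rb, a receptor chain of NK cells and killer T cells, was at 0.416 and 1.48 per the authors' deposited table.

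Lymphocyte cytokine and homing receptor genes were among those called. Ifng, the interferon of T and NK cells, and Il17a were listed at 0 in q1 per the authors' deposited table. In q2 they were at 1.34 and 1.07, each with a Cuffdiff q of 0.0108. No fold is given against a value of 0. Xcl1, at 0.247 and 2.73, and Lta, at 0.141 and 1.14, were not called (Cuffdiff q = 0.999 for each). Whether the calls of Ifng and Il17a rest on the 0 in q1 was not tested. Of the 14 tested cytokine and chemokine genes, 12 lay above 0, against 48.7% of all tested genes. Ccl5, a chemokine of killer cells, was at 7.62 and 36.1 (Cuffdiff q = 0.299), Ccl4 at 84.1 and 240 (Cuffdiff q = 0.0669) and Ccl3 at 24.2 and 45 per the authors' deposited table. Among homing genes, Ccr7, the lymph node homing receptor of T cells and dendritic cells, rose from 2.54 to 13.4 (Cuffdiff q = 0.0275 per the authors' deposited table). Of 14 tested homing genes, 13 lay above 0, against 48.7% of all tested genes, with a median of 1.18. S1pr1 and Klf2, which endothelial cells express strongly, were listed at 176 and 229 and at 135 and 117 per the authors' deposited table.

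Over these T cell and NK lists and that of innate lymphoid genes, 8 in all without the members, 124 of 160 genes were tested and 5 were called, all higher in q2, where 0.498% of all tested genes were. They included Tyrobp, Ccr7, and Ifng and Il17a, the latter both listed at 0 in q1. Above 0 lay 92 of the 124, or 74.2% against 48.7% of all tested genes, with a median of 0.82 on the log2 scale, or 0.46 with a pseudocount of 1.

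**Figure D4:**
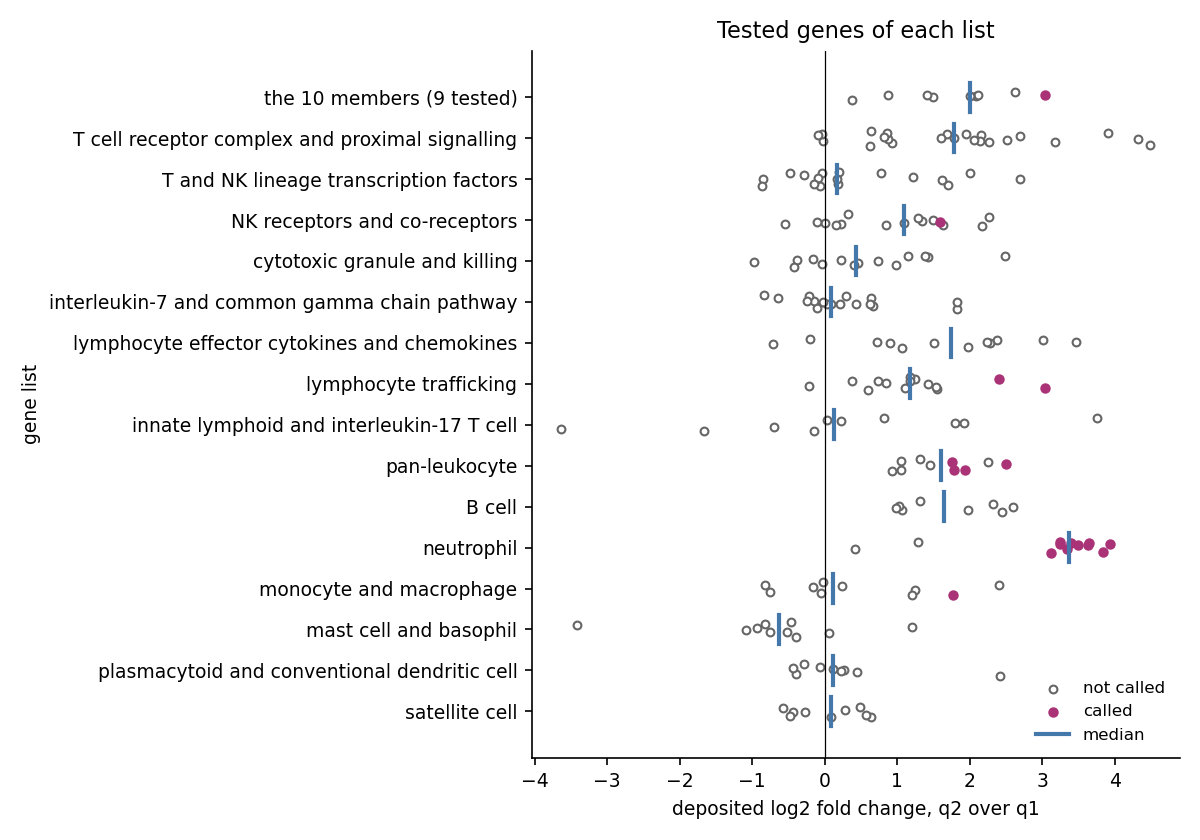
Deposited log2 fold change (q2 over q1) of each tested gene above 0 on both sides, 1 row per gene list and 1 point per gene (filled: called), with the median as a vertical bar; vertical scatter within a row has no meaning. Medians were 2.01 for the members, 1.60 for pan-leukocyte, 1.64 for B cell and 3.37 for neutrophil genes, against 0.09 for satellite cell genes.

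Pan-leukocyte, neutrophil and B cell genes lay on the same side as the members, while monocyte, mast cell and dendritic cell genes did not lie together on that side. Over all tested genes, 48.7% lay above 0 and 0.612% were called in either direction. All 10 pan-leukocyte genes lay above 0 and 4 were called. Their summed level was 404 in q1 and 1191 in q2, with none at 0 per the authors' deposited table. Among these, Cd52 rose from 41.6 to 235, Rac2 from 17.4 to 66.2, Coro1a from 37.2 to 129 and Cytip from 4 to 13.5 per the authors' deposited table. Of the 12 neutrophil genes tested, 12 lay above 0 and 10 were called, with a summed level of 1185 in q1 and 15263 in q2. The 8 tested B cell genes all lay above 0 with none called, and the summed level of the 10 B cell genes was 15.6 and 51.5; Cd79a, a chain of the B cell receptor, was at 4.93 and 19.3 per the authors' deposited table. Monocyte and macrophage genes lay on both sides, 5 above and 5 below 0, with Ccr2 called and a summed level of 1161 and 2323. Of 10 mast cell and basophil genes, 8 lay below 0, and the summed level was 202 and 165. No gene of these lists was listed at 0 in either condition. The part of these cells in the members' values was not tested.

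Set against Ptprc, which codes for the CD45 protein of all leukocytes, the members had fold changes on both sides of its own. Ptprc was listed at 12.1 and 25.1 per the authors' deposited table, a log2 fold change of 1.05 (Cuffdiff q = 0.491). Of the 9 tested members, 7 had a larger log2 fold change and 2 a smaller one, with a median difference of 0.96. These counts depend on the reference gene, since the median of the 10 pan-leukocyte genes was 1.60. Laptm5 had a smaller log2 fold change than Ptprc, at 0.93, and Cd52 had the largest, at 2.50. Lck, at 1.50, and Gzmb, at 1.41, lay above Ptprc but below that median. Nkg7 went from 27.8% of the Ptprc level to 110%, Cd3g from 5.88% to 17.5% and Il7r from 6.57% to 12.8%. Cd2 went from 40.3% to 35.9% and Gzma from 9.84% to 6.14%. Of the B cell genes, Cd79a went from 40.7% to 76.8%, a change of 1.89-fold in the ratio, where those of the tested members ran from 0.624 for Gzma to 3.96 for Nkg7. Outside that range lay S100a8 of neutrophils, at 7.35-fold, and the zeta chain gene Cd247, whose level is uncertain, at 0.474. These ratios have no spread and their differences were not tested.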

How the data were processed

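Per the submitters' processing notes, reads were processed with TopHat2 2.0.9 and Cufflinks 2.2.1. The notes name mm9, but all 10 members' positions overlap the RefSeq genes of GRCm38, so positions are given in GRCm38, 1-based. The authors deposited 1 table in the layout of Cuffdiff. Per the file headers it holds 1 value per condition, used here as FPKM although no heading names the unit, with the log2 fold change, a test statistic (a score, not used), a p-value and a q-value. For annotation, library normalization and strand, the setting is not given in the sources used. Of 23361 genes, 14858 had status OK and count as tested, 8499 NOTEST and 4 HIDATA. No values of single samples were analysed, so replicates could not be checked, and the authors' p-values may measure technical spread. With Python 3.11.15 and pandas 2.3.3, members and 15 other gene lists were counted by call and direction; a new Benjamini-Hochberg adjustment, tested on simulated data, differed from the deposited q by over 0.001 for 0 tested genes. Ratios to Ptprc and motif matches were computed from the files. Members, lists and settings were chosen with earlier results of these data known. The text names all members and, from each list, up to 4 called genes and the 2 most abundant tested ones; some of these are not reported here, and other genes and the motifs were chosen after values or sequences were seen. The alternatives changed the q threshold, the minimum level or fold, the pseudocount and the centring.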

Additional observations from a re-analysis of the deposited data

How the results depend on the processing

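The number of called members, 1, was also found at q below 0.1, with a minimum fold of 2, and when p-values were adjusted again over genes at 1 FPKM or more on the higher side, where Nkg7 had an adjusted p of 0.0292 by Benjamini-Hochberg adjustment of the Cuffdiff p. It was 0 at q below 0.01, a limit that no gene can pass because the smallest q in the table is 0.0108, and 6 at the unadjusted Cuffdiff p below 0.05. The median log2 fold change of the tested members, 2.01, was 1.88 with a pseudocount of 0.1, 1.19 with a pseudocount of 1 and 2.02 when centred on all tested genes. The number of members past 2-fold was 7, or 6 with a pseudocount of 1, against a background of 3.32% of tested genes on that scale. With genes at 1 FPKM or more on the higher side it was again 7, against 6.35%. No paired analysis was possible because the table holds no values per sample; leaving out a replicate was not run for the same reason.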

Other observations

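Genes of interleukin-17-producing T cells were mostly listed at low levels. Il17f was at 0.156 in q1 and 0.813 in q2, Blk, a kinase of B cells and of such T cells, at 0.34 and 1.28, and 5830411N06Rik, a scavenger receptor gene, at 0.181 and 2.44 per the authors' deposited table, none of them called. Il23r was at 0.00555 and 0 per the authors' deposited table. Of the 10 tested genes of the innate lymphoid and interleukin-17 list, 6 lay above 0 and 4 below, and the median was 0.13 on the log2 scale. None of the 10 was called, where 0.612% of all tested genes were called in either direction. Areg was at 0.662 and 0.0535 and Il12rb2 at 0.456 and 0.144 there, the 2 genes of the list that were more than 2-fold lower in q2 and neither of them called. Maf and Il1r1, which other cell types express, were the most abundant, at 24.5 and 28.6 and at 22.3 and 20.1 per the authors' deposited table.

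Dendritic cell genes lay on both sides of 0, 5 above and 4 below. None of the 9 was called, where 0.612% of all tested genes were called in either direction. Bst2 was at 215 and 257 and Cd209a at 37 and 28 per the authors' deposited table, while Flt3, the receptor of dendritic cell precursors, was at 0.258 and 1.38 with a Cuffdiff q of 0.572.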
